A study of Mus musculus with 61 samples.

Results

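The genes followed here mark the ducts, the basal layer and the myoepithelium of exocrine glands, and were measured in the lacrimal and the salivary glands of NOD males. They were Krt5, Krt14 and Trp63 of basal and myoepithelial cells, Acta2, Myh11 and Cnn1 of contractile cells, and Krt7, Krt19, Krt8 and Krt18 of simple epithelium. They were chosen by name, as the probe sets that carry 1 of these 10 gene symbols and no other in the annotation of the Mouse Genome 430 2.0 array. That gave 20 of the 45101 probe sets, for 10 of the 18194 genes that have a probe set of their own. The expression values were log2 and had been normalised by GCRMA, so a difference of 1 is a 2-fold change.

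NOD mice develop an autoimmune inflammation of the exocrine glands that resembles Sjögren's syndrome. By the study's account, males rarely develop disease of the salivary glands, while their lacrimal glands become heavily infiltrated by leukocytes. From week 8 of age, mice received weekly injections of LTBR-Ig (mLTBD-mIgG1 in the labels), a soluble lymphotoxin-beta receptor joined to an antibody Fc part that binds the receptor's ligands, or of MOPC-21, a control antibody, or were left untreated. Lacrimal glands of untreated mice were profiled at week 8 (4 arrays), week 12 (3), week 14 (4) and week 16 (4), and those of mice given LTBR-Ig or MOPC-21 at weeks 12 and 16 (4 arrays each, after 4 and 8 weeks of injections). Salivary glands were described in the methods as combined submandibular/salivary/parotid glands, and their sample titles read SUB. Which glands each array held is not stated in full. They were profiled at the same ages and treatments with 4 arrays a group, except LTBR-Ig at week 12 with 2. All mice were NOD males, and each lacrimal array held both glands of 1 mouse. For salivary arrays the sources do not state this, so their p-values measure the spread between arrays, which may be technical. Whole-gland RNA was measured, so fewer cells of a type cannot be told apart from less RNA per cell.

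An exocrine gland is a tree of ducts that ends in secretory acini. Keratins are the intermediate filaments of these epithelia and work as pairs of a type I and a type II chain. Krt8 and Krt18 form the pair of simple epithelium, which includes acinar and ductal cells, and Krt7 and Krt19 are enriched in ducts. Krt5 and Krt14 form the pair of basal cells and of myoepithelial cells, where the transcription factor Trp63 is also made. Myoepithelial cells wrap the acini and squeeze them with the proteins of smooth muscle, among them Acta2 (smooth muscle alpha-actin), Myh11 (smooth muscle myosin heavy chain) and Cnn1 (calponin 1, which binds actin). The same 3 proteins are made by the smooth muscle of blood vessels.

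Positions are those of the mouse genome build GRCm38.p6. Krt5, Krt7, Krt8 and Krt18 share a keratin region of chromosome 15, at chr15:101707069-101712905, chr15:101412403-101427806, chr15:101996711-102004342 and chr15:102028216-102032026. Krt14 and Krt19 lie on chromosome 11, at chr11:100203162-100207510 and chr11:100140810-100145926. Acta2 is at chr19:34240336-34255585, Myh11 at chr16:14194527-14292188, Cnn1 at chr9:22099221-22109221 and Trp63 at chr16:25683763-25892088.

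Where a gene had several probe sets, the brightest on average over the 61 arrays stood for it. Testing needed a log2 value over 4 on 2 or more arrays of some group. A difference was called where it was at least 2-fold with an adjusted p under 0.05 (limma, Benjamini-Hochberg over all probe sets tested). In salivary glands all 10 genes were tested, and in lacrimal glands 9. Krt19 was the exception there. It lay between 2.64 and 4.11 on the lacrimal arrays, where 1 of 31 arrays passed 4, and between 4.13 and 5.41 on the 30 salivary arrays.

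Across all arrays, 37.3% to 41.4% of probe sets exceeded a log2 value of 4. The 3′ minus 5′ difference of Gapdh, a sign of RNA integrity, was −0.98 to −0.04 on 60 arrays and 3.90 on salivary MOPC-21 week 12 replicate 2. On 8 lacrimal arrays of weeks 12 and 16, Amy1, which encodes salivary amylase, exceeded a log2 value of 8. No scan or hybridisation batch is given in the sources used here. Age and any such batch therefore cannot be told apart.

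The first comparison asked how the glands differed at week 8, before any treatment. Of the 10 genes, 6 were called lower in lacrimal than in salivary glands and none was called higher, where 18.8% of the 21626 probe sets were called (7.19% higher and 11.6% lower in lacrimal glands). Counting the 9 genes that pass the filter in each gland by itself, 5 were called lower, where 18.2% of 18068 such probe sets were called. The median change of the 10 genes was −1.02, against −0.03 over all probe sets tested. By adjusted p alone, 8 were lower and 1, Krt8, was higher, where 53.8% of all probe sets passed.

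The ductal keratin Krt7 differed most among the 10. Its values were 5.82, 6.45, 6.25 and 5.53 in the 4 lacrimal glands and 8.76, 9.21, 9.13 and 8.79 in the 4 salivary glands. Every lacrimal gland was far below every salivary gland, by 2.96 on the log2 scale on average (7.77-fold, adjusted p = 1.5e-22). Of all probe sets, 25.9% were lower in lacrimal glands without overlap. Krt19, another keratin of ducts, averaged 4.91 in salivary glands (4.74 to 5.19), while 3 of 4 lacrimal glands were under 4 and the other read 4.11. It entered the test through salivary glands alone, so the size of its difference is not measured. The simple pair behaved differently from Krt7. Krt18 differed by −0.02 (adjusted p = 0.854), and Krt8 was higher in lacrimal glands by 0.40 (adjusted p = 0.00369), a difference under 2-fold. Its groups did not overlap, as was so for 23.4% of all probe sets in that direction.

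Of the basal genes, Krt5 was lower in lacrimal glands by 1.13 (adjusted p = 5.2e-09) and Krt14 by 1.01 (adjusted p = 9.9e-10). The difference of Trp63, −0.46, was under 2-fold (adjusted p = 0.0275) and missed the threshold in 5 of 19 alternative analyses. Without salivary untreated week 8 replicate 3, where Trp63 was highest at 6.33, its adjusted p was 0.41. Of the contractile genes, Myh11 was lower in lacrimal glands by 1.33 (adjusted p = 5.8e-13) and Acta2 by 1.04 (adjusted p = 2.8e-10). Cnn1 was lower by 0.88, under 2-fold (adjusted p = 0.000594). Krt14 and Acta2 lay close to the 2-fold limit, and each fell under it in some alternatives.

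The wider lists of duct, basal and contractile genes were counted over the genes that pass the filter in each gland by itself, since a gene measured in 1 gland alone had to differ. Of 13 such genes of simple epithelium and ducts, 6 were lower in lacrimal glands and none was higher, with a median of −0.97 against −0.02 over all such probe sets. They were led by Tfcp2l1 (−4.21), a transcription factor of ducts. Wfdc2, Cftr and Cldn4, further genes of ducts, averaged 9.46, 7.67 and 6.82 in salivary glands and under 4 in lacrimal glands. These genes did not pass the filter in lacrimal glands, so they are outside the count and the size of their differences is not measured. Of 11 basal genes, 4 were lower and none higher (median −0.79), led by Lamb3 (−2.30), a chain of laminin-332. Of 13 other contractile genes, 6 were lower, among them Tagln (−1.35), and 1, Actn1 (2.90), was higher. Markers of fibroblasts (6 of 8 lower) and of pericytes (3 of 3 lower) also differed between the glands, and their part in these differences was not tested.

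**Figure D1:**
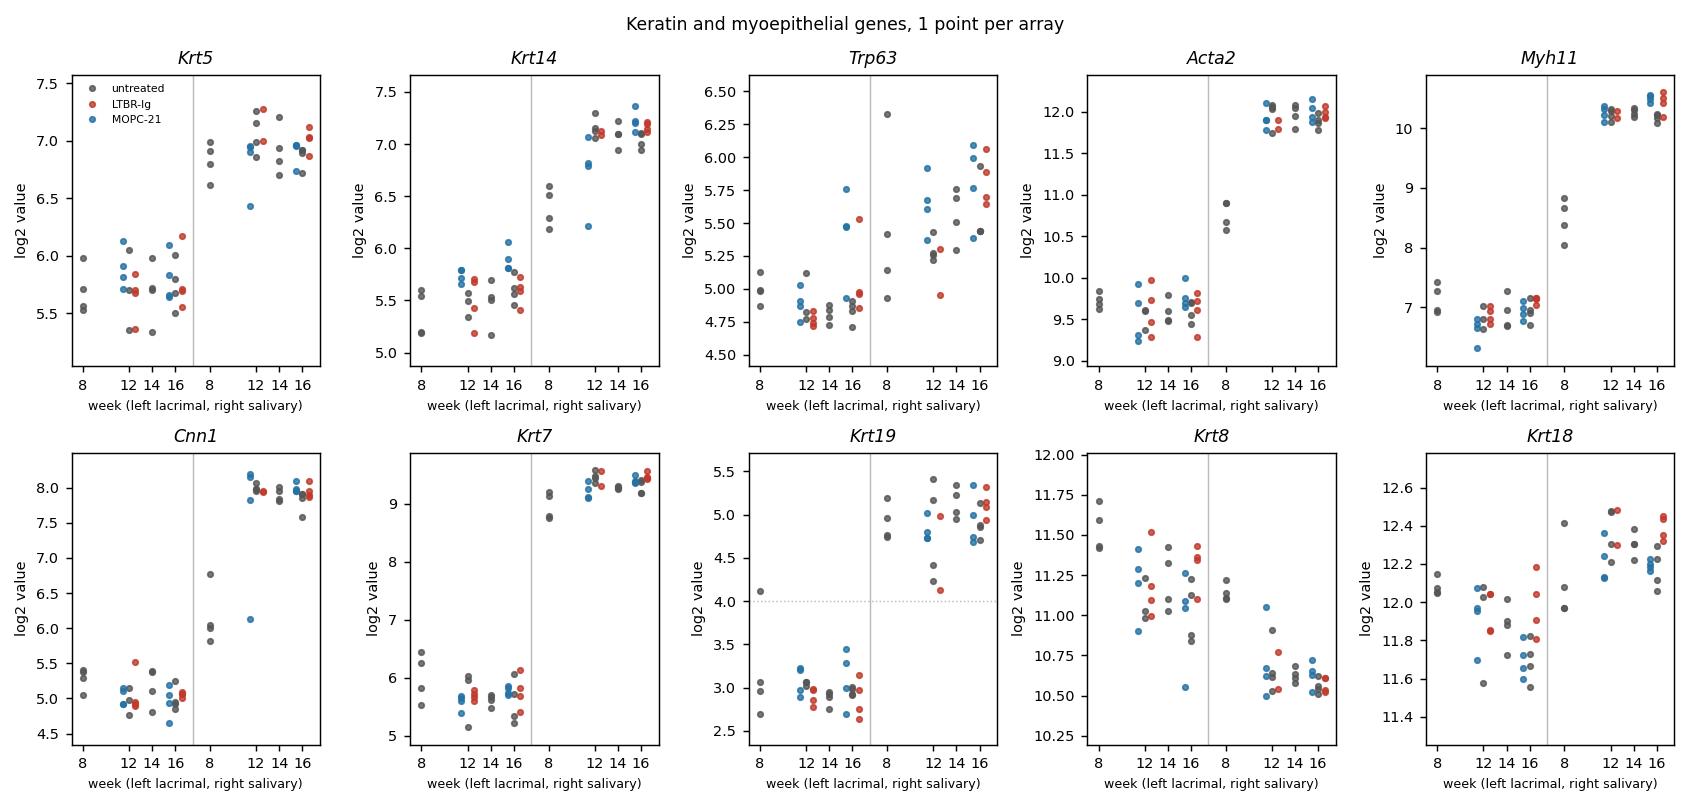
Log2 expression of the 10 genes, 1 panel per gene, on every array by gland, week and treatment (points are single arrays). Krt7 sat near 9 in salivary and near 6 in lacrimal glands, and the 4 salivary arrays of week 8 sat below every later salivary array for Acta2 and Myh11.

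The second comparison asked what changed with age in untreated salivary glands. The 3 contractile genes rose together between week 8 and week 12, and no further change was detected after that. Of the 10 genes, 3 were called higher at week 12 and none lower, where 7.12% of the 19617 probe sets were called, 3.49% upwards. The same 3 were called at week 14 (7.26% of all probe sets) and at week 16 (7.14%).

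Acta2 read 10.67, 10.90, 10.90 and 10.57 on the 4 arrays of week 8, and 12.06, 12.08, 11.74 and 12.03 on those of week 12. It was higher at week 12 by 1.22 (SE 0.0887, 2.32-fold, adjusted p = 3.2e-11). Myh11 read 8.38, 8.83, 8.67 and 8.04 at week 8, and 10.11, 10.31, 10.21 and 10.29 at week 12. Its difference was 1.75 (SE 0.112, 3.37-fold, adjusted p = 2.71e-12), and the groups were separated by more than 1 log2 unit. Of all probe sets, 13.2% were higher at week 12 without overlap of any size. Cnn1 read 6.05, 6.0, 6.77 and 5.82 at week 8, and 7.99, 8.07, 7.99 and 7.96 at week 12, a difference of 1.84 (SE 0.265, 3.58-fold, adjusted p = 4.61e-06). Between week 8 and week 16 the 3 differences were 1.12, 1.70 and 1.65 (adjusted p = 1.37e-10, 4.34e-12 and 2.03e-05).

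From week 12 to week 16 the differences were −0.09 for Acta2 (95% interval −0.28 to 0.09), −0.05 for Myh11 (−0.28 to 0.18) and −0.19 for Cnn1 (−0.73 to 0.36). None of the 10 genes was called by limma in that comparison, where 0.0102% of all probe sets were called, and 1 gene, Krt18, had an unadjusted p under 0.05.

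Between untreated salivary glands of weeks 8 and 16, 15.2% of all probe sets were higher at week 16 without overlap. The share of probe sets over all later arrays together was not counted. Counting treated mice as well, all 26 salivary arrays of weeks 12 to 16 lay above all 4 arrays of week 8 for Acta2 and for Myh11. Cnn1 did so in 25 of 26. The exception was MOPC-21 week 12 replicate 2, at 6.14 for Cnn1, which is the array with the Gapdh difference of 3.90. The other salivary arrays of weeks 12 to 16 had Gapdh differences of −0.98 to −0.54, and the 4 arrays of week 8 had −0.78 to −0.08.

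In the RefSeq promoter windows (GRCm38.p6, from 250 bases before to 50 after a transcript start), Acta2 was the member with a CArG-like element, the kind of sequence that serum response factor binds in smooth muscle genes. Both stretches of its minus strand are shown because Acta2 is among the 3 genes that rose, with the element in capitals. The first lies 84 to 75 bases before the start used by the table, at chr19:34255438-34255467, and the second 34 to 25 bases before it, at chr19:34255388-34255417.
Acta2, distal: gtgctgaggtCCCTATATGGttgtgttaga
Acta2, proximal: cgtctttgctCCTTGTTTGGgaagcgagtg
The letters searched were CC, then 6 bases of which at least 5 are A or T, then GG, which reads alike on both strands. They were found in 9.98% of 32851 promoter windows, and 2 or more were found in 0.822%. With all 6 bases A or T the share was 1.63% of windows and 0 of 7 members. Windows were matched for 7 of the 10 genes, and the other 6 (Krt5, Krt14, Krt7, Krt8, Krt18 and Cnn1) held no match in theirs. A match of letters is a description of the window and not a binding site.

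Krt14 moved in the same direction as the contractile genes but by less than 2-fold. It read 6.19, 6.51, 6.60 and 6.29 at week 8 and 7.15, 7.30, 7.12 and 7.05 at week 12, without overlap, as did 13.2% of all probe sets in that direction. The difference was 0.76 at week 12 (adjusted p = 2.07e-05) and 0.64 at week 16 (adjusted p = 0.000187). Its usual partner Krt5 differed by 0.24 at week 12 (adjusted p = 0.136), and Trp63 by −0.16 (adjusted p = 0.59), so neither passed the test.

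The keratins of simple epithelium went different ways in salivary glands. Krt7 was higher at week 12 by 0.50 (adjusted p = 0.000133) and at week 16 by 0.32 (adjusted p = 0.00878). Krt8 was lower by 0.47 at week 12 (adjusted p = 0.000154) and by 0.58 at week 16 (adjusted p = 9.3e-06). Between untreated weeks 8 and 16, 19.1% of all probe sets were lower at week 16 without overlap. Krt8 ranged from 11.10 to 11.22 on the 4 arrays of week 8. On all 26 later arrays, for which the share of probe sets was not counted, it ranged from 10.50 to 11.05, so none overlapped week 8.
Its partner Krt18 was higher by 0.26 at week 12 (adjusted p = 0.0166), which missed 0.05 in 5 of 18 alternatives, and by 0.07 at week 16 (adjusted p = 0.579). Krt19 differed by −0.11 at week 12 (adjusted p = 0.731). By adjusted p alone, 36.3% of all probe sets passed at week 12 and 33.8% at week 16.

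**Figure D2:**
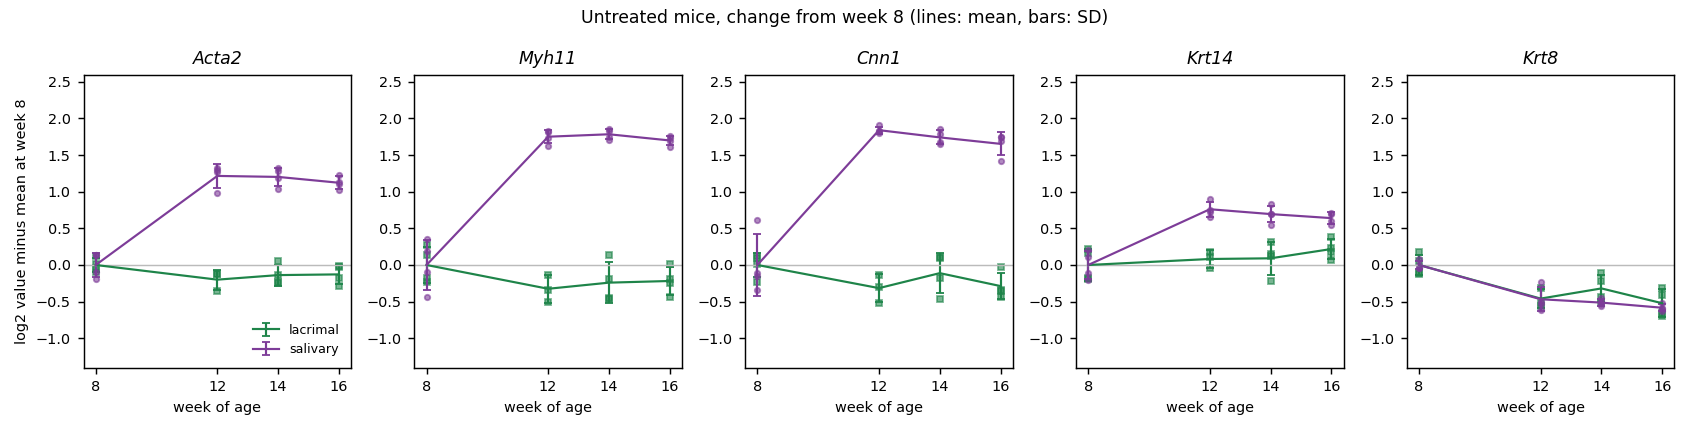
Log2 change from week 8 in untreated glands for Acta2, Myh11, Cnn1, Krt14 and Krt8, 1 panel per gene, with salivary and lacrimal glands as separate lines. Points are single arrays minus the gland's mean at week 8, lines are group means and bars are SD. In salivary glands Acta2, Myh11 and Cnn1 were higher by 1.12 to 1.84 on average at weeks 12 to 16. Their mean changes in lacrimal glands lay between −0.32 and −0.11.

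The contractile genes were read within a list of 20 other genes of smooth muscle and myoepithelium, of which 17 were tested in salivary glands. At week 12, 5 of the 17 had risen and none had fallen, and at week 16, 8 had risen and none had fallen. The 17 include genes that averaged under 4 at week 8, such as Actg2, which could rise but hardly fall, so these counts lean upwards. Of the 20 genes, 14 averaged over 4 at week 8 and 16 at week 16. The median change of the list was 0.88 at week 12 and 0.90 at week 16, against −0.09 and −0.04 over all probe sets. Among those that rose by week 16 were Tagln, which encodes transgelin (1.86), and Mylk, the myosin light chain kinase (1.61). Synpo2, an actin-binding protein of contractile cells, rose by 1.45. Tagln averaged 8.60 at week 8 and 10.46 at week 16. Actg2, the gamma-actin of smooth muscle (3.54), and Kcnmb1 (2.77) averaged under 4 at week 8. They entered the test through later groups, so the size of their change is not measured.

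Markers of other contractile and stromal cells were counted beside them. Of the 10 genes of pericytes and vascular smooth muscle, 6 were tested in salivary glands. At weeks 12 and 14, 3 had fallen and 1 had risen, Mcam, an adhesion protein of vascular walls (1.06 and 1.36), and at week 16, 3 had fallen and none had risen. Those that fell by week 16 were Rgs5 (−1.71), which marks pericytes, Pdgfrb (−1.51), the receptor of platelet-derived growth factor on mural cells, and Abcc9, a subunit of their potassium channels, which averaged 4.08 at week 8 and under 4 later. The mean of this list was 4.44 to 4.73 on the week 8 arrays and 4.03 to 4.43 on the later ones. Of the 8 fibroblast genes, 4 fell, led by the collagens Col1a1 (−2.75), Col3a1 (−2.72) and Col1a2 (−2.42), and the list's mean was 9.98 to 10.4 at week 8 and 8.58 to 9.17 later. None of the 12 skeletal muscle genes was tested, and their mean was 2.76 to 3.0 in all groups of both glands, so genes such as Acta1 and Ckm were at background. In untreated salivary glands the mean of the B cell markers was 2.62 to 3.97 at week 8 and 2.66 to 2.89 at week 16. That of the T cell markers was 2.86 to 3.16 and 2.96 to 3.07. Amy1, a product of parotid acini, was 4.58 to 5.56 at week 8 and 7.10 to 14.9 later. The part of these shifts in the rise of the contractile genes was not tested.

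**Figure D3:**
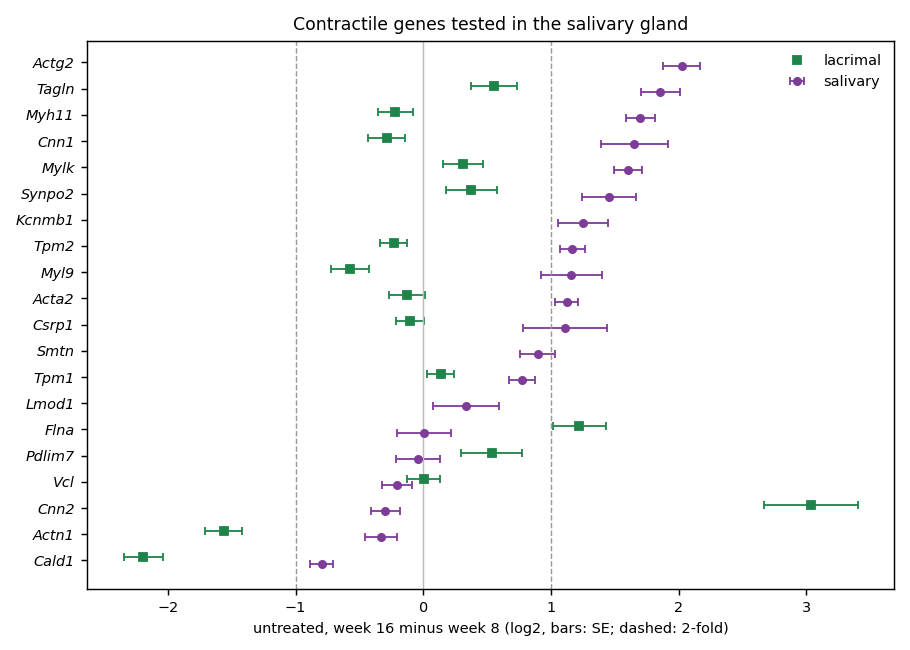
Log2 change from week 8 to week 16 in untreated glands for the 3 contractile members and the other contractile genes tested, 1 row per gene, with both glands as separate points. In salivary glands Tagln (1.86) moved with Myh11 (1.70), while in lacrimal glands Cald1 (−2.19) and Cnn2 (3.04) lay at opposite ends. Actg2 and Kcnmb1 averaged under 4 in salivary glands at week 8, so their points there are not measured sizes.

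Other basal and ductal genes gave smaller counts in salivary glands. Of 14 tested genes of basal adhesion and basal keratins, 3 rose by week 16 and none fell: Pkp1 (1.07), a desmosomal plakophilin, Trim29 (1.04), a gene of stratified epithelium, and Lama3 (1.01), another chain of laminin-332. Of 16 tested genes of simple epithelium and ducts, Cftr (1.51), a chloride channel, and Cldn4 (1.29), a claudin, rose and Elf5 (−1.14), a transcription factor of secretory epithelium, fell. The list medians were 0.18 and 0.13, against −0.04 over all probe sets.

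The third comparison followed age in untreated lacrimal glands. None of the 9 tested genes was called by limma at week 12 (9.67% of all 20077 probe sets called), at week 14 (13.6%) or at week 16 (16.5%). At an unadjusted p under 0.05 there were 2, 1 and 3 genes at these weeks. By adjusted p alone, Krt8 was lower at week 12 by 0.46 (change −0.46, adjusted p = 0.0178, under 0.05 in 14 of 17 alternatives), where 35.2% of all probe sets passed. Krt8 and Krt18 were lower at week 16, where 53.5% of all probe sets passed.

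Krt8 read 11.71, 11.60, 11.42 and 11.43 at week 8 and 11.12, 10.84, 11.23 and 10.88 at week 16. It was lower by 0.52 on the log2 scale at week 16 (change −0.52, SE 0.138, adjusted p = 0.00246), and its other probe sets gave −0.54 and −0.50. Krt18 read 12.06, 12.08, 12.15 and 12.05 at week 8 and 11.82, 11.66, 11.73 and 11.55 at week 16, a change of −0.39 (adjusted p = 0.00186). Neither gene's groups overlapped, and each kept an adjusted p under 0.05 in all 18 alternatives (at most 0.0333 for Krt8 and 0.0103 for Krt18). Such separation was common in this comparison, where 54.4% of probe sets did not overlap and 30.6% were lower without overlap. Over treated mice as well, 24 of the 27 lacrimal arrays of weeks 12 to 16 lay below all 4 arrays of week 8 for Krt8, and likewise 24 for Krt18. The share of all probe sets was not counted over these arrays.

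The contractile genes did not pass the test in lacrimal glands. Acta2 differed by −0.13 at week 16 (95% interval −0.42 to 0.16, adjusted p = 0.461), Myh11 by −0.22 (−0.50 to 0.06) and Cnn1 by −0.29 (−0.59 to 0.02, adjusted p = 0.104). Of the 13 other contractile genes tested there, 2 rose and 2 fell by week 16, with a median of 0.14 against −0.07 over all probe sets. Cnn2 (3.04), a calponin that immune cells also make, and Flna (1.22), the widely made filamin A, rose, and Cald1 (−2.19), caldesmon, and Actn1 (−1.56), alpha-actinin 1, fell. The mean of the B cell markers was 2.87 to 3.72 at week 8 and 7.51 to 8.31 at week 16, and that of the T cell markers 3.0 to 3.19 and 5.97 to 6.47. The part of these cells in the changes of the keratins was not tested.

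Of 13 tested genes of simple epithelium and ducts, 4 fell in lacrimal glands by week 16 and none rose. They were Prom1 (−2.55), which encodes the apical protein prominin 1, and the epithelial transcription factors Elf5 (−1.56), Tfcp2l1 (−1.19) and Elf3 (−1.05). The list's median was −0.38, against −0.07 over all probe sets. Of 11 tested basal genes, Dst (1.07), which links keratin to hemidesmosomes, rose, and Jup (−1.10), plakoglobin, and Itga6 (−1.06), integrin alpha 6, fell.

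Set against each other, the 2 glands differed in how the contractile genes changed with age. In the fit of both glands, the week 16 minus week 8 change was larger in salivary than in lacrimal glands by 1.25 for Acta2 (adjusted p = 6.06e-08), by 1.92 for Myh11 (adjusted p = 2.93e-12) and by 1.94 for Cnn1 (adjusted p = 1.38e-06). These 3 of 10 genes were called, where 19.6% of the 21626 probe sets were called. The median difference of the 10 genes was 0.44, against 0.03 over all. Krt7 (0.75, adjusted p = 0.00479) and Krt18 (0.46, adjusted p = 0.00438) differed by less than 2-fold. Krt14 (0.42, adjusted p = 0.0489) stood at the threshold and missed it in 16 of 28 alternatives. The adjusted p alone was under 0.05 for 40.1% of all probe sets. Krt8 was lower with age in both glands, and its difference was −0.06 (95% interval −0.40 to 0.27, adjusted p = 0.793).

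The fourth comparison asked what LTBR-Ig did to these genes in lacrimal glands, where MOPC-21 was the control. None of the 9 tested genes was called by limma at week 16, although 5.88% of all probe sets were called, most of them lower with LTBR-Ig (68 higher and 1112 lower). That total of 1180 was 96 without MOPC-21 week 16 replicate 3, 327 without LTBR-Ig week 16 replicate 3 and 22 without the 8 arrays high in Amy1, and no member was called in any of these fits. Of the 9 genes, 4 (Krt14, Krt8, Krt18 and Trp63) had an unadjusted p under 0.05. At week 12 none was called (0.0498% of all probe sets), and none had an unadjusted p under 0.05. The median change of the 9 genes at week 16 was −0.02, against −0.05 over all.

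Krt18 was the gene with an adjusted p under 0.05 at week 16, where 22.3% of all probe sets passed that rule. It read 11.81, 11.91, 12.18 and 12.04 with LTBR-Ig and 11.65, 11.82, 11.60 and 11.72 with MOPC-21. The groups overlapped by the lowest LTBR-Ig and the highest MOPC-21 gland, which differed by about 0.01. The difference was 0.29 (SE 0.0995, 95% interval 0.08 to 0.49, adjusted p = 0.0407), a 1.22-fold change. Over 18 alternatives its sign did not change, and its adjusted p was under 0.05 in 9, with a range of 0.0119 to 0.47. It was highest without the 8 lacrimal arrays high in Amy1, where the difference was 0.16. Of 12 salivary gland products, 9 were higher with LTBR-Ig in these lacrimal glands (median 4.80). Without the 8 arrays the difference was 0.28 for Krt8 (adjusted p = 0.405), −0.28 for Krt14 (adjusted p = 0.343) and −0.16 for Trp63 (adjusted p = 0.644). The Amy1-high arrays at week 16 were 2 of LTBR-Ig (replicates 3 and 4), 2 of untreated glands and none of MOPC-21.

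Krt8, the partner of Krt18, read 11.10, 11.43, 11.36 and 11.34 with LTBR-Ig and 11.04, 11.26, 10.55 and 11.09 with MOPC-21. Its difference was 0.32 (adjusted p = 0.0842). Its other probe sets gave 0.47 (adjusted p = 0.0221) and 0.42 (adjusted p = 0.0178), so the 3 probe sets had the same sign and fell on different sides of the threshold. Against untreated glands of week 16, none of the 9 genes was called by limma (3.95% of all probe sets), and Krt8 and Krt18 had an unadjusted p under 0.05. Against untreated glands the 3 Krt8 probe sets gave 0.29, 0.41 and 0.37 (adjusted p = 0.154, 0.0619 and 0.0461).

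Other epithelial genes were read from the same lists at week 16. Of 13 tested genes of simple epithelium and ducts none was called, and the list's median was 0.38. Of 11 tested basal genes none was called either, and that list's median was 0.09. The median over all probe sets was −0.05.

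Krt14 and Trp63 had the opposite sign to Krt8 and Krt18, and neither passed the adjusted test. Krt14 read 5.63, 5.60, 5.41 and 5.72 with LTBR-Ig and 5.81, 5.81, 5.90 and 6.06 with MOPC-21. All LTBR-Ig glands were lower, by 0.31 on average (95% interval −0.57 to −0.05, adjusted p = 0.076), where 12.7% of all probe sets were lower without overlap. Trp63 read 5.53, 4.98, 4.85 and 4.96 with LTBR-Ig and 5.48, 5.47, 5.76 and 4.93 with MOPC-21, a difference of −0.33 (adjusted p = 0.0825).

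For the probe sets that represent Krt14 and Trp63, the MOPC-21 glands also lay above the untreated ones. The second tested probe set of Krt14 went the other way, with means of 4.91 for MOPC-21 and 5.08 for untreated glands. Trp63 read 4.71, 4.91, 4.83 and 4.87 in untreated glands of week 16, below all MOPC-21 glands by 0.58 on average (adjusted p = 1), and Krt14 was also lower in untreated glands without overlap, by 0.29 (adjusted p = 1). Of all probe sets, 0.852% lay higher in MOPC-21 glands without overlap. No gene was called by limma between MOPC-21 and untreated glands (0% of all probe sets), and Krt14 and Trp63 had an unadjusted p under 0.05.

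The remaining lacrimal genes gave differences of either sign within about 0.2 of 0. These were −0.03 for Krt5, −0.02 for Krt7, −0.17 for Acta2 (95% interval −0.46 to 0.12), 0.18 for Myh11 (−0.10 to 0.47) and 0.11 for Cnn1 (−0.20 to 0.41). Of the 13 other contractile genes, Cnn2 alone was called, lower by 1.43 (change −1.43, adjusted p = 0.0123). All 6 tested B cell markers fell in the same comparison, with a median of −2.25.

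**Figure D4:**
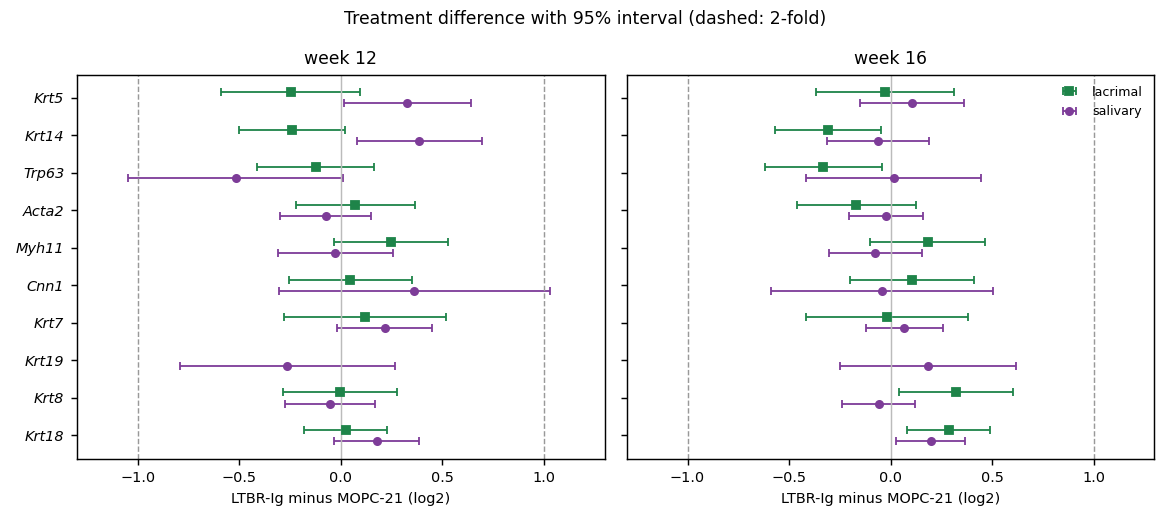
Log2 difference between LTBR-Ig and MOPC-21 glands at week 12 (left) and week 16 (right) for the 10 genes in salivary and the 9 tested genes in lacrimal glands (points are limma estimates and bars 95% intervals). At week 16 all points lie between −0.33 and 0.32, and the Krt18 points lie at 0.29 in lacrimal and 0.20 in salivary glands. At week 12 the largest absolute difference is 0.52 in salivary and 0.25 in lacrimal glands.

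In salivary glands of week 16, limma called none of the 10 genes between the LTBR-Ig and MOPC-21 groups (0.0357% of all probe sets), and Krt18 had an unadjusted p under 0.05. Krt18 read 12.44, 12.32, 12.35 and 12.45 with LTBR-Ig and 12.22, 12.20, 12.16 and 12.18 with MOPC-21. The groups did not overlap, as was so for 2.97% of all probe sets in the same direction. The difference was 0.20 (95% interval 0.03 to 0.37) and did not pass the adjusted test (adjusted p = 0.782). The contractile genes that rose with age differed little with treatment: −0.02 for Acta2 (95% interval −0.21 to 0.16), −0.07 for Myh11 and −0.04 for Cnn1 (−0.59 to 0.50). Their week 16 means were 11.98 and 12.00 for Acta2 and 10.43 and 10.50 for Myh11 with LTBR-Ig and MOPC-21.

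At week 12, with 2 salivary arrays of LTBR-Ig, none was called either (0.0306% of all probe sets). Krt5 (0.33) and Krt14 (0.39) had an unadjusted p under 0.05, and the lowest adjusted p of the 10 genes was 0.282. The MOPC-21 group there includes replicate 2, the array with the Gapdh difference of 3.90. Krt5 read 6.43 on that array and 6.91 to 6.95 on the other MOPC-21 arrays. A test of whether the LTBR-Ig effect differed between glands at week 16 called none of the 10 genes by limma (2.93% of all probe sets called). Krt8 had an unadjusted p under 0.05 there, with a lacrimal minus salivary difference of 0.38 and an adjusted p of 0.158.

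Lacrimal glands of weeks 12 to 16 varied widely in lymphocyte RNA, so the 9 tested genes were set against the mean of the B cell markers, such as Cd79a and Ms4a1, over these 27 arrays (9 relations, permutation test with 100000 draws). The draws shuffled arrays without regard to week or treatment, so the permutation p-values also take in differences between groups. The marker mean was 2.87 to 3.72 at week 8, 7.09 to 8.98 with MOPC-21 at week 16 and 4.75 to 7.18 with LTBR-Ig at week 16. Krt18 was lower where B cell markers were higher, with Pearson's r = −0.85 and Spearman's rho = −0.85 (permutation p = 1e-05, the smallest these draws can give, adjusted p = 9e-05). Without the 2 arrays farthest from the median, r was −0.83 over 25 arrays, and with each group's mean removed it was −0.87. Without the 8 arrays high in Amy1, r was −0.81 and rho −0.82 over 19 arrays (adjusted permutation p = 0.00027 and 0.00054). Of all 20077 probe sets, 0.349% had an r as low as that of Krt18.

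Krt8 followed with r = −0.59 (permutation p = 0.00137, adjusted p = 0.00617) and rho = −0.57 (permutation p = 0.00217, adjusted p = 0.00977), with −0.67 without those 2 arrays and −0.54 within groups. Without the arrays high in Amy1, r was −0.58 (adjusted permutation p = 0.0401) and rho −0.55 (adjusted permutation p = 0.0723). As many as 15.4% of probe sets had an r that low. Krt14 had r = 0.47 (permutation p = 0.0125, adjusted p = 0.0281) and rho = 0.45 (permutation p = 0.0187, adjusted p = 0.0561), with 0.43 without the 2 arrays and 0.50 within groups, and 31.6% of probe sets had an r that high. Without the arrays high in Amy1 it had r = 0.51 and rho = 0.49 (adjusted permutation p = 0.0542 and 0.0968). Acta2 had r = 0.49 (adjusted permutation p = 0.028) and rho = 0.36 (adjusted permutation p = 0.137), with 0.35 without the 2 arrays and 0.60 within groups, and 30.6% of probe sets had an r that high. Without the arrays high in Amy1, Acta2 had r = 0.56 (adjusted permutation p = 0.0404) and rho = 0.38 (adjusted permutation p = 0.159). For the other 5 genes the adjusted permutation p was 0.174 or more by r and 0.137 or more by rho. The arrays shared age, treatment and normalisation, and the median r over all probe sets was 0.09.

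**Figure D5:**
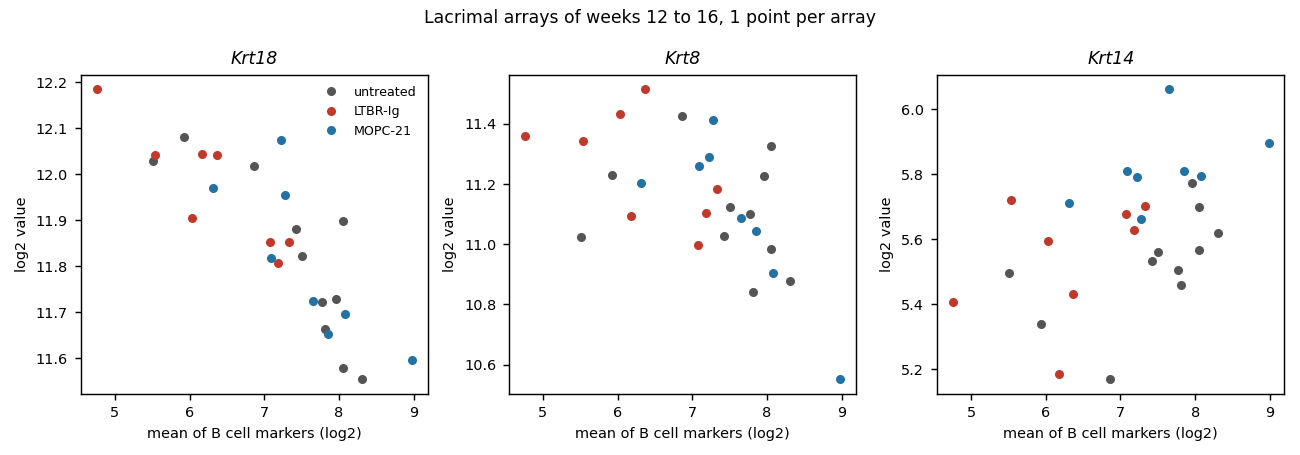
Log2 expression of Krt18, Krt8 and Krt14 against the mean of the B cell markers on the 27 lacrimal arrays of weeks 12 to 16 (1 point per array, coloured by treatment). Krt18 fell along the whole range (r = −0.85), Krt8 less tightly (r = −0.59), and Krt14 lay higher where B cell markers were higher (r = 0.47).

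Probe sets of the same gene were compared where there were several. The 3 probe sets of Krt8 moved together in lacrimal glands, as given above. The second tested probe set of Krt14 averaged 5.77 in salivary glands at week 8 and 6.35 at week 16. The second probe set of Acta2 averaged 2.96 at week 8 and 4.43 at week 16 in salivary glands, and entered the test through the later groups, so the size of its change is not measured. The probe sets that represent Acta2 and Krt14, and the other probe sets of Krt8, carry suffixes for probes that can also match related transcripts. A part of their signal may therefore come from other actin or keratin genes. One further probe set, listed for Krt17 and Krt14 together, was not a member. The remaining 6 probe sets of Krt14, Acta2, Myh11 and Trp63 averaged between 2.25 and 3.48 over the 61 arrays.

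As a description over the 30 salivary arrays, which share ages and treatments, Acta2 correlated with Myh11 at r = 0.96 and with Cnn1 at 0.85, Krt14 with Cnn1 at 0.91, and Krt8 with Cnn1 at −0.90. Outside the 10 genes, the patterns most like that of Acta2 in salivary glands were those of Cd59a (r = 0.97), App (0.97), Mxra7 (0.96), Mylk (0.96) and Unc13b (0.96), among 9894 genes tested. For Krt14 they were Myl9 (0.92), Aftph (0.92), Clcn2 (0.92), Camk2n1 (0.91) and 2410002F23Rik (0.90), and for Krt8 Prdx4 (0.92), Col4a2 (0.92), Marcksl1 (0.92), Igfbp7 (0.90) and Lyar (0.90). Over the 31 lacrimal arrays, Krt8 was most like Sel1l3 (0.88), Pex11g (0.88), Alg11 (0.87), Calr (0.87) and Crip2 (0.87), and Acta2 most like Sgcb and Fst (0.82 each) among 10121 genes. Krt14 had no pattern as close there, with Unc119 at 0.72 as the nearest.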

How the data were processed

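Both lacrimal glands of a mouse were combined, RNA was extracted with Trizol and RNeasy, amplified with NuGEN Ovation and hybridised to Affymetrix arrays. The authors deposited log2 expression values, background-corrected and normalised by GCRMA over the whole set (version not given in the sources used here), for 61 arrays (31 lacrimal, 30 salivary) and 45101 probe sets. They were used as deposited. Of the probe sets, 34958 carried 1 gene symbol, 932 several and 9211 none.

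Each gland was fitted in R 4.3.3 with limma 3.58.1 (1 mean per group, intensity trend), and both glands together for comparisons between them. Testing needed a log2 value over 4 on 2 or more arrays of some group (20077 lacrimal, 19617 salivary, 21626 probe sets for both). P-values were Benjamini-Hochberg adjusted over all of them. Calls needed a fold of 2 and an adjusted p under 0.05. The number of arrays limits the precision. The fits were tested on simulated data.

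The 10 genes and the marker lists were chosen with earlier results of these data known. All 10 genes are named, and of each list up to 4 called genes with the largest change, plus a few markers whose levels are given. The comparison of age changes between glands and that of salivary weeks 16 and 12 were added after the values were seen, as were leaving out salivary MOPC-21 week 12 replicate 2, a block of same-numbered glands, and the B cell relations without the Amy1-high arrays. Alternatives covered the filter, normalisation, array weights, trend, choice of probe set, replicate block, a posterior rule, the Amy1-high arrays and each array in turn. Promoter windows and coordinates came from RefSeq.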

Additional observations from a re-analysis of the deposited data

Results flagged for a closer look

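Each gene was checked in each group of 4 arrays by Dixon's criterion, 140 checks that share arrays. Chance alone flags about 1 in 20 such checks. In 7 of the 140, 1 array lay far from the other 3. Of these, 3 concerned Krt5 in salivary glands: MOPC-21 week 12 replicate 2 read 6.43 where the others were 6.91 to 6.95, untreated week 16 replicate 4 read 6.72 (others 6.89 to 6.92), and MOPC-21 week 16 replicate 4 read 6.74 (others 6.95 to 6.96). The first is the array whose Gapdh 3′ minus 5′ difference was 3.90. Acta2 was low in salivary untreated week 12 replicate 3, at 11.74 (others 12.03 to 12.08), which is still above all arrays of week 8. Cnn1 was high in lacrimal LTBR-Ig week 12 replicate 3, at 5.52 (others 4.89 to 4.95), and low in salivary untreated week 16 replicate 3, at 7.58 (others 7.86 to 7.91). Trp63 was high in salivary untreated week 16 replicate 2, at 5.93 (nearest other array 5.44).

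The change from week 8 to week 16 differed between the glands for 6 genes by adjusted p alone, where 40.1% of the 21626 probe sets passed. This test of the difference itself was added after the values were seen, and Krt14 missed the threshold in 16 of 28 alternatives. Salivary minus lacrimal, the differences were 1.25 for Acta2, 1.92 for Myh11, 1.94 for Cnn1, 0.75 for Krt7, 0.46 for Krt18 and 0.42 for Krt14. Whether differences in tissue makeup take part was not tested.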

How the results depend on the processing

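The number of the 10 genes called did not change in any comparison under the alternatives run or in 93 fits that each left out 1 array, with the exception of the glands at week 8, where it was 5 or 6 under other settings and ranged from 4 to 6 without 1 array (6 with all arrays). Of 365 settings for genes that were called, 356 kept the call and none reversed. The other 9 concerned Krt14 and Acta2 between glands at week 8, which came under 2-fold: Krt14 at −0.96 with array weights and −0.86 after quantile normalization, Acta2 at −0.55 as a mean over its probe sets, and values of −0.94 to −0.99 without 1 array. The replicate number as a block changed no call of a member, with 6 called between glands at week 8 and 3 called in salivary glands from week 8 to week 12. Nor did a replicate block of same-numbered lacrimal and salivary glands of a group, chosen after seeing the data (6 at week 8, 3 for the age difference between glands). Replicate numbers did not pair the samples: within glands, 49 pairs in 13 comparisons gave correlations of −0.51 to 0.51, with 10 over 0.1. Across glands, 29 pairs in 8 groups gave −0.24 to 0.13, with 3 over 0.1, and 7 glands correlated best with their own number. Counts over all probe sets were less stable: between LTBR-Ig and MOPC-21 in lacrimal glands at week 16 they were 1180 with all arrays, 96 to 1681 without 1 array, 193 with only the groups compared, 741 above a log2 value of 6, 601 for gene means, 45 by the posterior rule and 22 without the arrays high in Amy1. Between LTBR-Ig and untreated glands 793 became 20 to 1263 without 1 array and 0 without those arrays.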
